A study of Ovis aries with 6 samples.

Results

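The granins are acidic proteins of the regulated secretory pathway, stored with peptide hormones and neuropeptides in dense-core granules. The 7 genes of interest were CHGA, CHGB, SCG2, SCG3, SCG5, PCSK1N and VGF. They were chosen by name from a family list and not by their values, though earlier results of these data were known. Of the 7 genes, 6 were found among the 26067 features under their own symbol. SCG5 was not found under its symbol, but the row LOC101102647 carries the gene ID that RefSeq gives to SCG5, and its values are given under that name. Counts of members below are over the 6 found by symbol, and over 7 only where SCG5 is said to be included.

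The tables hold full-length complementary DNA of 6 sheep (Ovis aries), read on Oxford Nanopore devices, with pituitary as the tissue label throughout. Per the design text, 3 healthy small-tailed Han sheep formed a high-reproduction group and 3 healthy Wadi sheep a low-reproduction group. The labels call the libraries C1 to C6 without naming a breed, so no comparison of breeds was made, and the libraries are reported one by one, in the order C1 to C6, with no replicates. Levels are CPM, counts per 1000000 gene counts of a library, and intervals are 95% intervals that cover counting error only, as reads of amplified molecules are not independent.

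Chromogranin A and chromogranin B (CHGA, CHGB) and secretogranin II (SCG2) aggregate in the trans-Golgi network as granules form, and are cut there or later into smaller peptides. Secretogranin III (SCG3) binds chromogranin A and the cholesterol-rich granule membrane. SCG5 encodes the chaperone of the prohormone convertase PCSK2, PCSK1N encodes proSAAS, an inhibitor of the convertase PCSK1, and VGF encodes a peptide precursor induced by neurotrophins. In the anterior pituitary these genes belong to the hormone-producing cells, but neurons also make granins, so a granin alone does not mark the gland.

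The libraries differed in whether they held pituitary hormone genes at all. The 7 hormone genes PRL, GH, CGA, LHB, FSHB, TSHB and POMC took 14.2, 30.0 and 4.71% of the counts in C4 to C6, but between 0.00472 and 0.0139% in C1 to C3. In C1 to C3 the pituitary lineage factors POU1F1 and TBX19 had 0 counts in every library, which goes against the tissue label. Other genes of the pituitary cell lists were found there. DRD2 had 59, 65 and 60 counts, GATA2 12, 17 and 11, and TRHR 12, 19 and 11, all lower in CPM than in C4 to C6. CRHR1, listed with TBX19, went the other way, with 119, 123 and 79 counts in C1 to C3 and 8, 7 and 4 in C4 to C6. All 14 markers of cerebellar granule and Purkinje neurons exceeded 10 CPM in each of C1 to C3, against 3, 3 and 5 of them in C4 to C6. The summed level of 11 general neuron genes was 5650 to 6033 CPM in C1 to C3 and 495 to 1008 CPM in C4 to C6. The summed level of 7 myelin genes was 17665 CPM in C6 and 7.44 to 199.8 CPM in the other libraries. Each granin is therefore given with and without C1 to C3. In whole tissue, fewer granule-containing cells and less granin RNA per cell cannot be told apart.

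SCG2 carried most of the family's variation. It was at 48.5, 53.8, 60.9, 1684, 4408 and 453 CPM in C1 to C6. Its level was thus low and nearly level in C1 to C3, and highest in C5, followed by C4 and then C6. The level in C5 was 91.0-fold that in C1 (95% interval 75.6 to 110.5), and within C4 to C6 alone the ratio of C5 to C6 was 9.74. Without C5 the ratio of the highest to the lowest library was 34.8. Neighbouring libraries in this order were apart by more than counting error except C3 from C2 and C2 from C1, whose ratios of 1.13 (0.900 to 1.43) and 1.11 (0.863 to 1.43) included 1.

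**Figure D1:**
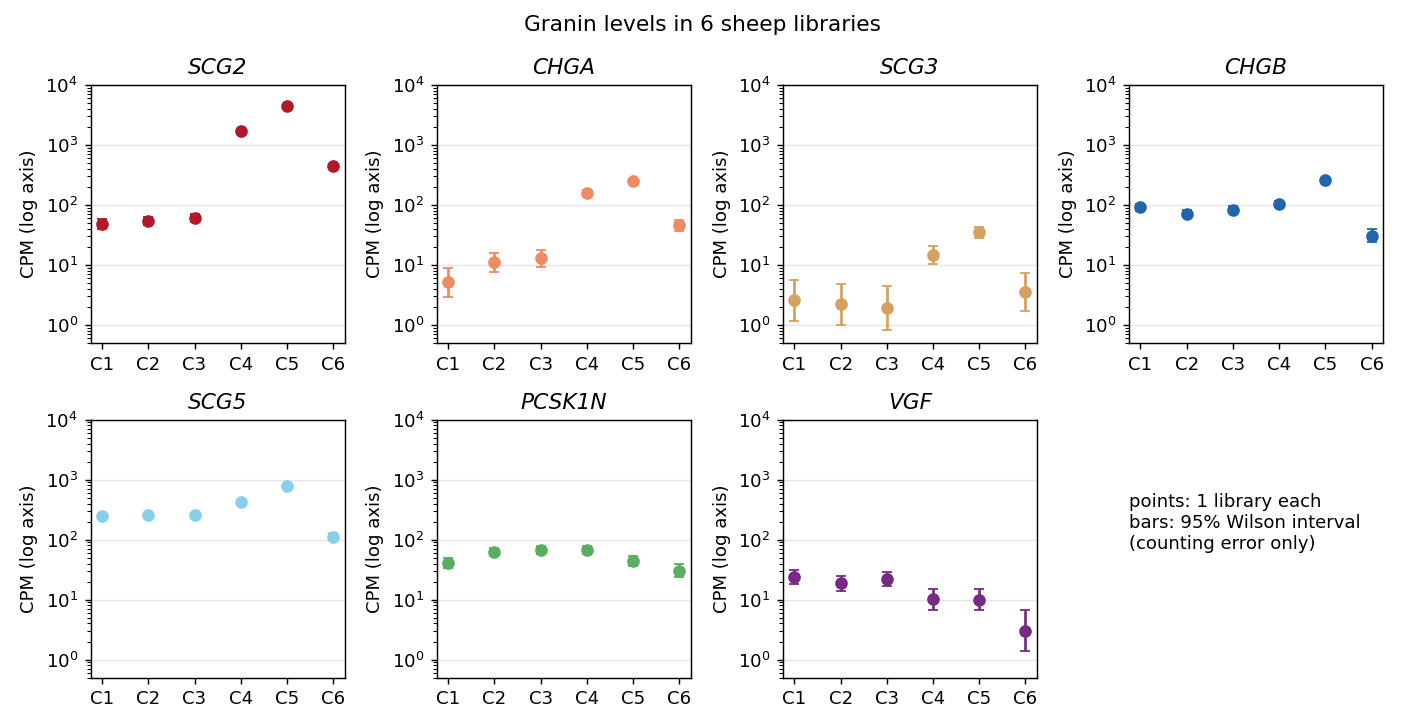
Level of each granin gene in CPM (log axis) in the libraries C1 to C6; each point is 1 library and each bar a 95% Wilson interval for counting error. SCG2, CHGA and SCG3 are lowest in C1 to C3 (SCG2 at 48.5 to 60.9 CPM) and highest in C5, CHGB and SCG5 are lowest in C6, PCSK1N stays between 30.3 and 67.0 CPM, and VGF is lower in C4 to C6 than in C1 to C3 in CPM, but not in TPM.

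CHGA had the same order of libraries as SCG2. It had 12, 30, 34, 366, 605 and 91 counts, which came to 5.15, 11.0, 12.9, 160.2, 250.0 and 45.9 CPM. C4 to C6 again stood above the other libraries. The ratio of C5 to C1 was 48.6 (27.6 to 94.6), resting on the 12 counts of C1, and fell to 22.8 without C1 and to 31.1, between C4 and C1, without C5. Among C4 to C6 the highest was 5.45 times the lowest.

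SCG3 had the fewest counts of the family and the same 3 highest libraries. It had 6, 6, 5, 33, 84 and 7 counts, or 2.57, 2.20, 1.89, 14.4, 34.7 and 3.53 CPM. C5 and C4 were apart from each other and from C6, whereas C6 and C1 to C3 could not be told from each other within counting error. The ratio of C5 to C3 was 18.3 (7.56 to 58.0), and without C5 the highest ratio among the other libraries was 7.63. With C4 to C6 alone it was 9.83.

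CHGB departed from CHGA in C1 to C3. Its levels there were 90.9, 71.0 and 82.9 CPM, close to the 103 CPM of C4, although in TPM they were 6.87, 5.77 and 7.86, against 18.3 in C4. C5 stood alone at 261 CPM, and C6 was lowest at 30.8 CPM. The ratio of C5 to C6 was 8.49 (6.52 to 11.2), while C4, C1, C3 and C2 followed each other with ratios between 1.10 and 1.17 whose intervals included 1. Pairs further apart in this order differed by more than counting error. The ratio was 1.46 (1.20 to 1.77) for C4 to C2, 1.25 (1.03 to 1.51) for C4 to C3 and 0.781 (0.639 to 0.953) for C2 to C1. The range rested on both end libraries, being 3.36 without C5 and 3.68 without C6, and it was the same 8.49 within C4 to C6 alone.

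SCG5 had nearly the same profile as CHGB. It was at 248.7, 259 and 255 CPM in C1 to C3, a spread of 1.04-fold that was the smallest of the 7 genes in CPM. In C4 to C6 it was at 429, 791 and 112 CPM, so that C6 was again below all other libraries. The ratio of C5 to C6 was 7.09 (6.17 to 8.19), was the same within C4 to C6 alone, and was 3.85 without C5 and 3.18 without C6. Counts of SCG5 per count of CHGB stayed between 2.74 (2.33 to 3.22) in C1 and 4.16 (3.60 to 4.81) in C4.

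PCSK1N varied least, at 41.2, 62.6, 67.0, 67.0, 44.2 and 30.3 CPM. C3, C4 and C2 could not be told apart within counting error, nor could C5 and C1, or C1 and C6. The ratio of C3 to C6 was 2.21 (1.64 to 3.02), just past the minimum of 2 used for a call, and it was 1.63 without C6. Within C4 to C6 alone the ratio of C4 to C6 was likewise 2.21. C5, highest in CPM for SCG2, CHGA, SCG3, CHGB and SCG5, was at rank 4 of 6 for this gene.

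VGF ran the other way in CPM, though not in the TPM given further on. It had 55, 51, 58, 23, 24 and 6 counts, or 23.6, 18.7, 21.9, 10.1, 9.92 and 3.03 CPM. C1 to C3 lay above C4 and C5, and C6 was lowest. The ratio of C1 to C6 was 7.79 (3.36 to 22.1), resting on the 6 counts of C6, and was 2.38 without C6. Within C4 to C6 alone the highest was 3.33 times the lowest.

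All 6 members found by symbol differed between the libraries by a chi-square test of homogeneity with Benjamini-Hochberg adjustment over 13248 genes (adjusted p below 0.05 with highest and lowest CPM at least 2-fold apart), as did SCG5. The same rule called 80.9% of all genes tested, so this count says little of the granins. The adjusted p was 1.08e-09 for PCSK1N, 3.99e-09 for VGF, 4.09e-43 for SCG3 and 2.89e-146 for CHGB. The test compares these libraries, not breeds or conditions. PCSK1N was no longer called without C6, nor SCG3 without C5, where its 57 remaining counts fell under the minimum of 60 counts for a test.

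The sizes of the differences are given beside those of all genes. The ratio of highest to lowest library had a median of 13.4 over the 6 members, and of 4.31 over all genes tested. Without C5 these medians were 7.71 and 3.59. Over all 6 libraries the ratio was at least 10 for 3 members (SCG2, CHGA and SCG3), and for 27.1% of all genes tested. C5 was the highest library for 4 of 6 members, and for 11.8% of genes, and C6 the lowest for 3 of 6, and for 17.4% of genes. C4 to C6 were the 3 highest libraries for 3 of 6 members (22.8% of genes), and C1 to C3 for VGF alone (38.8% of genes).

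Within C4 to C6 alone, 5 of the 6 members differed, and 40.2% of 9166 genes tested in these libraries did. VGF was not tested there, as its 53 counts were under the minimum. The median ratio of the 6 members was 6.97, and 1.77 over the genes tested. Within C1 to C3 alone, 0 of 5 tested members were called by the chi-square test with its minimum ratio, against 10.3% of 10281 genes, and 3 had an unadjusted p under 0.05. These were CHGA (ratio 2.50, adjusted p = 0.0502), CHGB (ratio 1.28, adjusted p = 0.0990) and PCSK1N (ratio 1.63, adjusted p = 0.00164).

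The make-up of the family changed with the library. Counted over the 6 members found by symbol, SCG2 made up 82.6% of the granin counts in C4 (81.5 to 83.7%), 88.0% in C5 (87.4 to 88.6%) and 79.9% in C6 (77.5 to 82.2%). In C1 to C3 its share was 22.9, 24.5 and 24.6%, and the largest share of counts belonged to CHGB, at 42.9, 32.4 and 33.5%. CHGB held 5.07, 5.22 and 5.44% in C4 to C6, intervals that overlapped. PCSK1N made up 19.4, 28.5 and 27.1% in C1 to C3, but 3.28, 0.883 and 5.35% in C4 to C6. CHGA, the member most used as a neuroendocrine marker, never exceeded 8.11%, its share in C6, and was at 2.43% in C1.

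With SCG5 included, that gene took 54.0, 54.2 and 50.8% of the granin counts in C1 to C3, and 17.4, 13.6 and 16.5% in C4 to C6. Whether counts of these full-length reads scale with transcript length was not tested. In the authors' TPM, which are per length, PCSK1N and not CHGB led the 6-gene sum in C1 to C3, at 40.7, 53.0 and 51.2%, against 31.8, 21.2 and 22.3% for CHGB. In TPM SCG5 held 69.9, 68.5 and 66.8% of the 7-gene sum in C1 to C3, and 34.6, 30.6 and 31.4% in C4 to C6.

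**Figure D2:**
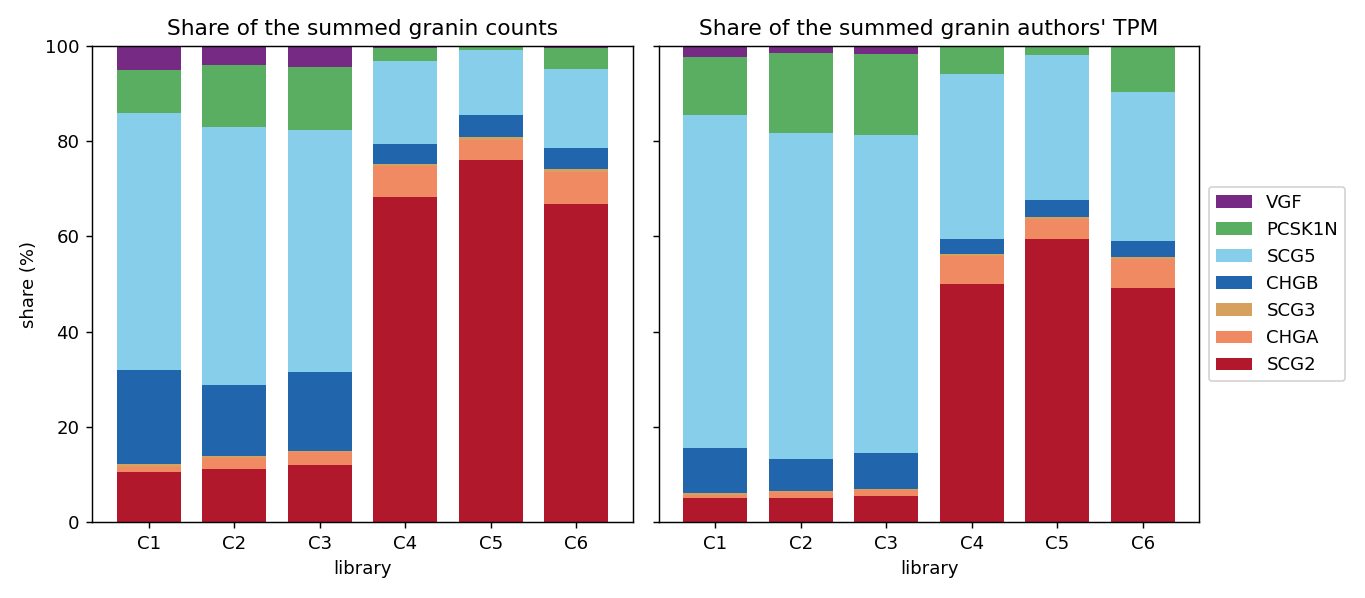
Share of each of the 7 granin genes, SCG5 included, in the family's summed counts (left) and summed TPM (right) in the libraries C1 to C6. SCG5 takes 50.8 to 54.2% of the counts in C1 to C3, and SCG2 66.8 to 76.0% in C4 to C6.

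The summed level of the 6 members was 211.8, 219 and 247.5 CPM in C1 to C3, and 2039, 5008 and 566 CPM in C4 to C6. C6 was thus closer to C1 to C3 in its granin sum than to C5. The sum in C5 was 23.6-fold that in C1 (21.6 to 25.9), and 12.6-fold with SCG5 included. With SCG5 the sum was 460.5, 479 and 503 CPM in C1 to C3, and 2468, 5799 and 678 CPM in C4 to C6. The CPM ratio was 33.8 when the hormone genes were left out of the library totals.

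Set against summed hormone transcripts, SCG2, CHGB, CHGA, SCG5 and SCG3 of C4 to C6 drew together. This scale is mostly PRL, with 276428 of 324574 hormone counts in C4, 597051 of 725028 in C5 and 82255 of 93426 in C6. GH, CGA, LHB and FSHB were ordered C5, C4, C6 as PRL was. POMC was instead highest in C4, and TSHB was lower in C4 than in C6. Ratios to single hormone genes, and the share of all genes that narrow on this scale, were not tested. SCG2 had 11.9, 14.7 and 9.60 counts per 1000 hormone counts in C4 to C6, a span of 1.53-fold, where its CPM spanned 9.74-fold. Its intervals in C5 (14.4 to 15.0) and C6 (8.98 to 10.3) did not overlap. The ratio within a library does not depend on how the libraries are scaled. CHGB had 0.727, 0.872 and 0.653 counts per 1000 hormone counts, a span of 1.34-fold, and CHGA had 1.13, 0.834 and 0.974, a span of 1.35-fold. SCG5 spanned 1.28-fold, from 2.37 in C6 to 3.02 in C4, and SCG3 1.55-fold, from 0.0749 in C6 to 0.116 in C5.

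PCSK1N did not draw together. It had 0.471, 0.148 and 0.642 counts per 1000 hormone counts in C4 to C6, a span of 4.35-fold that was wider than the 2.21-fold span of its CPM. VGF spanned 2.14-fold on this scale, on 23, 24 and 6 counts. In C1 to C3, where 129 to 325 hormone counts were found, SCG2 alone had 348, 1140 and 1211 counts per 1000 hormone counts, so the granin RNA of those libraries was not matched by hormone RNA.

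**Figure D3:**
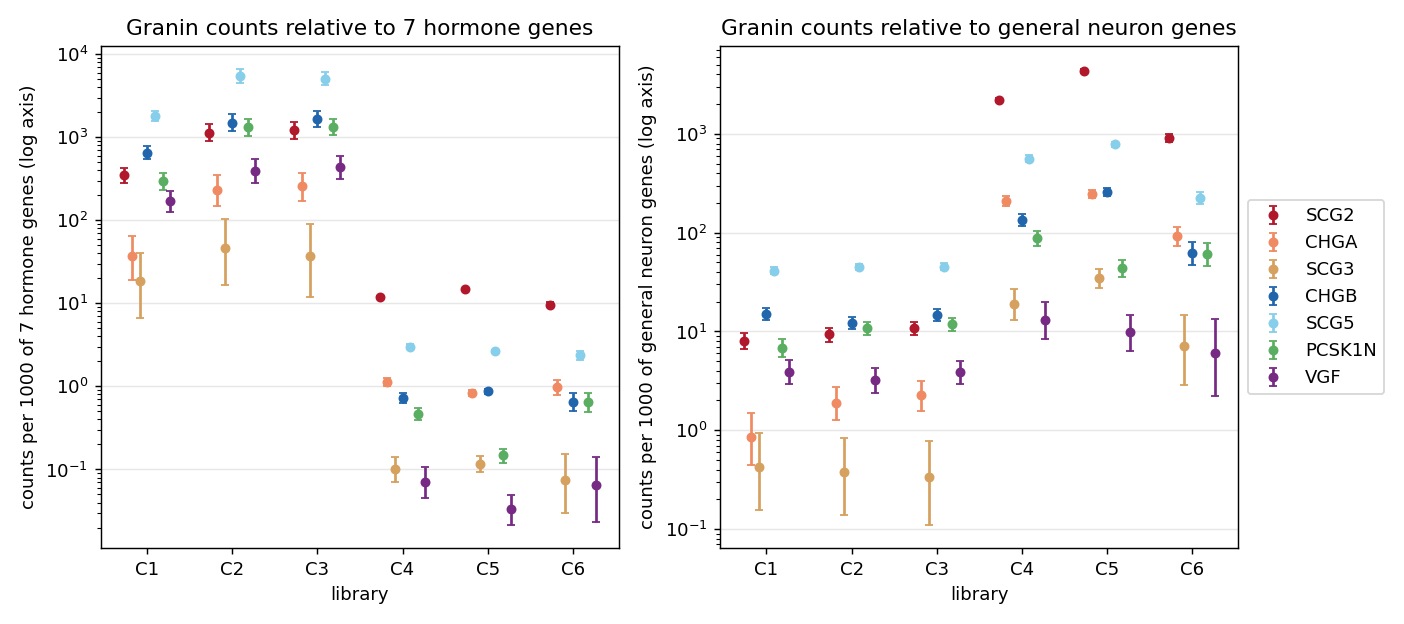
Counts of each granin gene per 1000 counts of the 7 hormone genes (left) and of the 11 measured general neuron genes (right), on log axes, in the libraries C1 to C6, with 95% exact conditional intervals. On the left, where most hormone counts of C4 to C6 are PRL, SCG2, CHGA, CHGB, SCG3 and SCG5 span 1.28- to 1.55-fold in C4 to C6. SCG2 is at 9.60 to 14.7 there, far below C1 to C3. On the right VGF has the narrowest span, 4.08-fold over the 6 libraries.

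Set against neuron transcripts, VGF was the member with the narrowest span. It had 3.91, 3.23 and 3.88 counts per 1000 neuron counts in C1 to C3, and 13.2, 9.84 and 6.12 in C4 to C6. The span over all 6 libraries was 4.08-fold for VGF, 12.9-fold for PCSK1N, 19.0-fold for SCG5, 21.1-fold for CHGB, 103-fold for SCG3, 291-fold for CHGA and 544-fold for SCG2. The part of neurons or of hormone-producing cells in these levels was not tested.

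The balance between single members differed in the same way. SCG2 had 0.533, 0.758 and 0.735 counts per count of CHGB in C1 to C3, so that CHGB led. In C4 to C6 it had 16.3 (14.3 to 18.7), 16.9 (15.6 to 18.3) and 14.7 (11.3 to 19.4), intervals that overlap. CHGB in turn had 17.7, 6.47 and 6.44 counts per count of CHGA in C1 to C3, and 0.645, 1.04 and 0.670 in C4 to C6. SCG2 and CHGB thus kept nearly 1 ratio in C4 to C6 while the level of each changed by more than 8-fold. Several other pairs were less steady. SCG2 had 17.6 (16.2 to 19.2) counts per count of CHGA in C5, but 9.86 (7.94 to 12.4) in C6. Per count of SCG5 it had 3.92, 5.57 and 4.06 in C4 to C6, with the interval of C5 (5.31 to 5.85) above the others. SCG5 had 6.41, 17.9 and 3.68 counts per count of PCSK1N. The intervals of PCSK1N to VGF overlapped, on 23, 24 and 6 counts of VGF.

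The order of the members within a library is given here per length, in TPM. By counts of these full-length reads the order differed in part. CHGB and not PCSK1N was second in C1 to C3, with 212, 194 and 219 counts against 96, 171 and 177. In C2 that ratio of counts, 1.13 (0.919 to 1.40), included 1. In C5 CHGB (632 counts) lay above CHGA (605 counts). The TPM order was as follows. SCG2 was first in C4 to C6, at 300.2, 841 and 65.8 TPM, and SCG5 second, at 207.6, 434 and 42.1 TPM. In C1 to C3 SCG5 was first, at 50.3, 59.3 and 71.1 TPM, followed by PCSK1N, at 8.81, 14.4 and 18.0 TPM, and CHGB, at 6.87, 5.77 and 7.86 TPM. SCG2 was at rank 4 there, at 3.67, 4.38 and 5.78 TPM. The first and second places were apart by more than counting error in every library, with TPM ratios from 1.45 in C4 to 5.71 in C1.

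CHGA changed rank between the libraries as well, and VGF and SCG3 held the last places. CHGA was at rank 6 in C1 to C3, at 0.481, 1.11 and 1.52 TPM, at rank 3 in C4 and C5, at 35.3 and 59.0 TPM, and at rank 4 in C6, at 8.28 TPM. SCG3 was last in C1 to C3, at 0.186 to 0.214 TPM, and VGF last in C4 to C6, at 1.61, 1.70 and 0.395 TPM. The pairs CHGA and PCSK1N in C4, PCSK1N and CHGB in C1, VGF and CHGA in C2 and C3, CHGA and SCG3 in C1, and SCG3 and VGF in C4 and C6 could not be ordered within counting error.

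**Figure D4:**
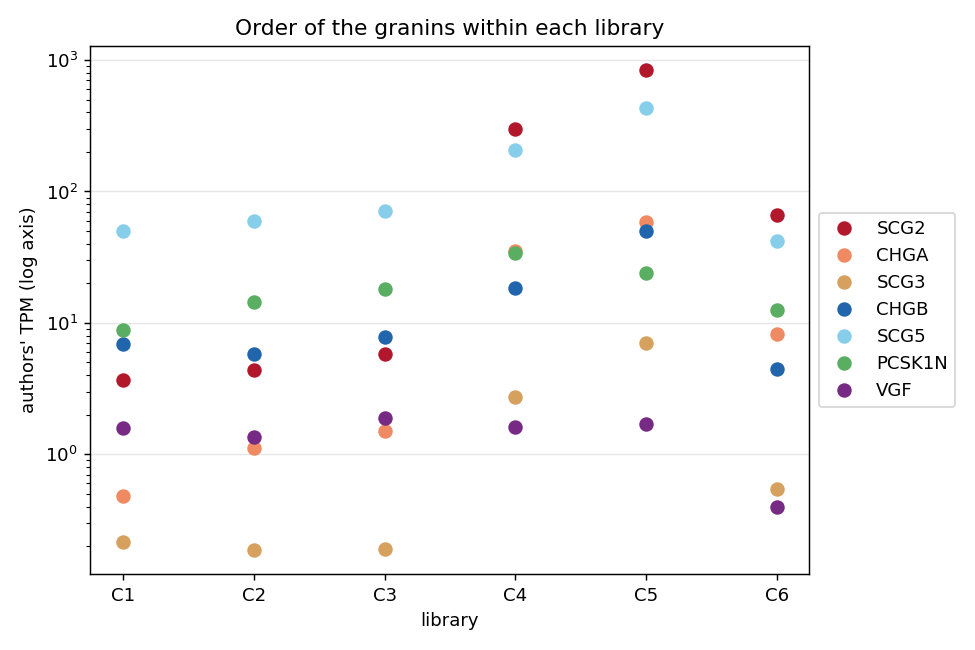
TPM of each of the 7 granin genes (log axis, per length) in the libraries C1 to C6; each point is 1 gene in 1 library. SCG5 is first in C1 to C3 (50.3 to 71.1 TPM), SCG2 is first in C4 to C6 (65.8 to 841 TPM), and CHGA is at rank 6 in C1 to C3 and at rank 3 or 4 in C4 to C6.

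CPM and TPM place C1 to C3 differently against C4 to C6. Over 6044 genes with at least 20 counts in every library, the median number of counts per TPM relative to C1 was 1.09, 0.900, 0.415, 0.410 and 0.441 in C2 to C6, and the 7 granins were between 0.383 and 0.460 in C4 to C6. A TPM ratio of C5 to C1 is therefore more than 2 times the CPM ratio, and was 229 for SCG2 and 123 for CHGA. The direction for SCG2, CHGA and SCG3 was the same on both scales. In TPM, C4 to C6 were the 3 highest libraries for these 3 of 6 members, and for 39.1% of genes, and C1 to C3 for 0 of 6, and for 22.7% of genes. VGF had no such direction in TPM, at 1.60, 1.36, 1.87, 1.61, 1.70 and 0.395, where C1 to C5 lay close together and C6 alone was low. PCSK1N was highest in C4 and lowest in C1 in TPM, at 8.81, 14.4, 18.0, 33.9, 23.9 and 12.5, with a ratio of 3.84.

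**Figure D5:**
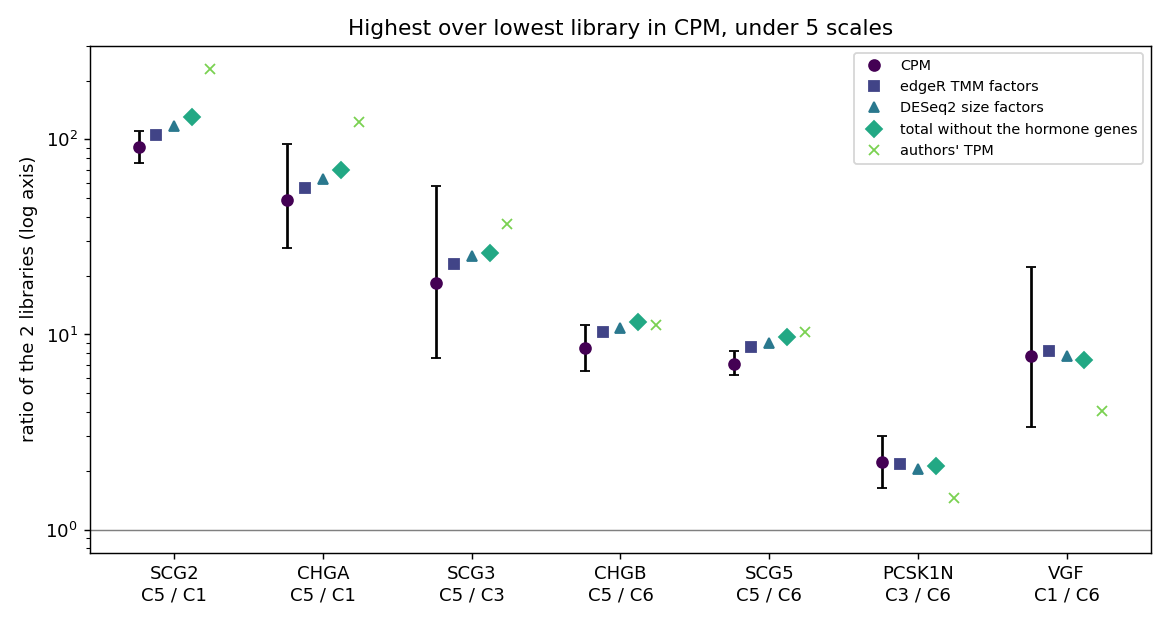
Ratio of the library with the highest CPM to that with the lowest for each granin gene (log axis; the grey line marks 1), computed in CPM (with its 95% exact conditional interval), with edgeR TMM or DESeq2 scaling, with hormone genes left out of the total, and in TPM. SCG2 runs from 91.0 in CPM to 229 in TPM, and PCSK1N from 2.21 in CPM to 1.45 in TPM.

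The genes that act on granin-associated cargo did not share 1 pattern. Of 7 tested genes of prohormone processing, 7 differed between the libraries, beside 80.9% of all genes. In CPM C4 to C6 were the 3 highest for 3 of them (22.8% of all genes), and C1 to C3 for CPE (38.8% of all genes). CPE, the carboxypeptidase that trims hormone precursors and binds SCG3, was at 467, 632, 597, 258, 185 and 220.0 CPM. It was thus higher in C1 to C3, the reverse of SCG2 and SCG3. PAM, the amidating enzyme of granules, was at 3.86, 6.59, 8.32, 75.3, 17.8 and 23.7 CPM, highest in C4. PCSK1, the convertase that proSAAS inhibits, was at 6.43, 5.12, 18.5, 7.00, 39.3 and 27.8 CPM, an order unlike that of PCSK1N. CPD, a carboxypeptidase of the trans-Golgi network, was highest in C6 at 231 CPM, with 62.8 to 105 CPM elsewhere, but in TPM it was highest in C1, at 52.5, against 43.0 in C6. PCSK2, the partner of SCG5, was not analysed here.

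Genes of granule biogenesis and of the granule membrane went both ways, in proportions that turned with the scale, as did those of all genes. Of 21 tested, 14 differed, of which 6 were highest in C5 and 5 in C1 in CPM. C5 was the highest library for 11.8% of all genes tested, and the share for C1 was not computed. C4 to C6 were the 3 highest libraries for 5 of the 21 and C1 to C3 for 7 in CPM, but for 10 and 3 in TPM. Over all genes tested these were 22.8 and 38.8% in CPM, and 39.1 and 22.7% in TPM. The share that differed was below the 80.9% of all genes. The docking GTPase gene RAB27A was at 1.29, 2.20, 0.757, 16.2, 31.0 and 4.54 CPM, in the same order of C5, C4 and C6 as SCG2. The vesicle priming gene CADPS2 was at 572, 435, 416, 29.8, 25.6 and 17.2 CPM and the synaptotagmin gene SYT4 at 462, 483, 461, 88.4, 220.3 and 20.2 CPM. Both were higher in C1 to C3 in CPM, and CADPS2 in TPM too, but SYT4 in TPM was at 20.2, 22.8, 25.4, 9.14, 24.3 and 1.70, so that C5 lay above C1 and C2. TBC1D5, a GTPase-activating protein gene of vesicle traffic, stayed within 1.34-fold in CPM, but in TPM was at 15.6, 12.4, 16.6, 56.0, 41.6 and 32.6.

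Of 9 tested neuroendocrine transcription factors 7 differed, a share near the 80.9% of all genes. INSM1, which drives neuroendocrine differentiation, was at 3.43, 3.29, 3.41, 115, 139.7 and 19.2 CPM, with the 3 highest libraries of SCG2 and CHGA in the same order. NEUROD1 was at 819, 880.4, 581, 1.75, 1.24 and 1.01 CPM and ST18 at 303, 233, 196, 37.2, 39.3 and 71.2 CPM. REST, whose product represses neuronal and granin genes, had 24 counts over the 6 libraries and was not tested; it is named after its values were seen. Of 22 dense-core vesicle peptides 6 reached the minimum and all 6 differed (80.9% of all genes did), with PENK at 88.3, 90.7, 114, 2.19, 0.827 and 1.51 CPM and TRH at 93.5, 146 and 120.0 CPM in C1 to C3 and 0 counts in C4 to C6. PENK and TRH were thus high in the libraries where SCG2 and CHGA were low. C1 to C3 were the 3 highest libraries for 3 of the 6 tested peptides (38.8% of all genes), and C4 to C6 for 0 (22.8% of all genes). With 6 peptides these counts say little of the peptides as a set. TAC1, named after its values were seen, was instead highest in C5, at 3.86, 3.29, 3.78, 5.25, 35.5 and 1.51 CPM in C1 to C6.

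Counts of called genes in the lists of cell markers were as follows. Beside the 80.9% called over all genes, all tested genes were called in the hormone list (7), the general neuron list (11), the cerebellar list (14), the somatotroph and lactotroph list (4), the gonadotroph and thyrotroph list (3) and the corticotroph and melanotroph list (2). The same held for stem and folliculostellate genes (6), posterior lobe and astroglia genes (4), myelin genes (7), endothelium and fibroblast genes (9) and immune genes (5). Of the called genes, 6 of 7 hormone genes and 4 of 4 somatotroph and lactotroph genes were highest in C5, the highest library of SCG2, CHGA, SCG3 and CHGB, and 7 of 7 myelin genes in C6, the lowest library of CHGB, PCSK1N, VGF and SCG5 in CPM (in TPM PCSK1N was lowest in C1). C5 was the highest library for 11.8% of all genes tested, and the share highest in C6 was not computed. Other lists were split. POMC was the hormone gene highest in C4, and 2 of 3 gonadotroph and thyrotroph genes were highest in C5. In the corticotroph and melanotroph list 0 of 2 were highest in C5, with TBX19 highest in C4 and CRHR1 in C1. Of the stem and folliculostellate genes 2 were highest in C5 and 4 in C6. The part of all these genes in the granin levels was not tested.

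Likeness of profile was measured as the root mean square difference between centred log2(CPM + 1) values over the 6 libraries, among 7279 named genes with a mean of at least 10 CPM. The gene nearest to CHGB was SCG5, at 0.20, followed by RTL1 at 0.23 and CHST8, a sulfotransferase gene of glycoprotein hormones, at 0.25. CHST8 was also nearest to SCG5, at 0.09, before CHGB itself. The family was not 1 group on this measure, since CHGB lay 1.77 from CHGA and 2.28 from SCG2, and the farthest pair, VGF and SCG2, were 3.19 apart.

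SCG2 was nearest to ELAPOR1 (0.25), the pituitary lineage factor POU1F1 (0.28) and NEUROD4 (0.28), and CHGA to LY6D (0.27), the epithelial adhesion gene EPCAM (0.33) and CIST1, named by its gene ID (0.39). POU1F1 and NEUROD4 were at 0 CPM in each of C1 to C3, where SCG2 was at 48.5 to 60.9 CPM. LY6D and CIST1 were at 0.366 to 1.10 CPM there. The nearness of these genes thus depends on the 1 CPM added before the logarithm. Although SCG2 and CHGA had the same order of libraries, they were 0.69 apart, as SCG2 spanned more. SCG3 was nearest to the oestrogen receptor gene ESR1 (0.17), GNB3 (0.22) and COBL (0.24). PCSK1N was nearest to TMEM127 (0.09), PMPCA (0.12) and DAAM1 (0.13), and VGF to C1H1orf216 (0.13), LRP12 (0.14) and the neuronal adhesion gene NEGR1 (0.14). NEGR1 was at 2365, 1868, 1901, 910.0, 789 and 346 CPM.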

How the data were processed

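Full-length complementary DNA libraries of 6 sheep were made with an amplification step and no named molecular identifiers, per the labels' protocols. Reads were aligned with minimap2 (version 2.17-r941 per the submitters' processing notes), while the quantifier, build and annotation were not given in the sources used here. The authors deposited estimated counts per gene, which are not normalized and were rounded to whole numbers here, and TPM values, which sum to 1000000 per library. Of each table, 4 rows of text were left out. Totals of rounded counts were 1981644 to 2732911 per library, and a single count equals 0.366 to 0.505 CPM.

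Rounded counts were divided by the library total to give CPM. Genes with at least 60 counts were tested by a chi-square test of homogeneity against the totals (scipy 1.17.1), with Benjamini-Hochberg adjustment (statsmodels 0.14.6). The calculation was checked on simulated data. Shares and levels have 95% Wilson intervals, ratios exact conditional (Clopper-Pearson) intervals, and zeros were raised to 3 counts before a ratio was taken. Symbols missing from the table were looked up by gene ID in a RefSeq table (ARS-UI_Ramb_v3.0), which named SCG5 and 6 genes of the 15 lists. Sequences and coordinates were not used here.

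The members and gene lists were chosen with earlier results of these data known. Named were the granins, the 2 genes of highest median CPM and the 2 of largest ratio in lists that a result turned on, and the 3 named genes nearest to each granin. Alternatives were scaling by edgeR 4.0.16 TMM factors or DESeq2 1.42.0 size factors, TPM, totals without hormone genes, thinned counts, other minimums and ratio thresholds, another pseudocount, and each library left out. Settings with C4 to C6 alone, C1 to C3 alone, or SCG5 added were chosen after seeing the data.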

Additional observations from a re-analysis of the deposited data

Results flagged for a closer look

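CHGB in C5, at 261 CPM, stood apart from the other 5 libraries, of which the next, C4, was at 103 CPM. The gap between them was 0.685 of the gene's whole range, above the critical value for 6 values, a rule that flags about 1 in 20 sets of values by chance. The libraries are not replicates of 1 group. In the authors' TPM the gap was 0.694 of the range. SCG2 and SCG3, also highest in C5, fell just short of the critical value in CPM and were past it in TPM, at 0.646 and 0.628. VGF in C6 was past it on the low side in TPM alone, with a gap of 0.655 of the range.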

How the results depend on the processing

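No paired analysis was possible because the labels put no library in a group. All 6 members found by symbol were called as differing under TMM and DESeq2 scaling, in thinned counts and with minimums of 30 or 1 counts. The count was 5 with a minimum ratio of 4 (PCSK1N lost), 7 of 7 with SCG5 added, and 5 to 6 with each library left out. It was 5 within C4 to C6 alone and 0 within C1 to C3 alone. The median ratio of the members, 13.4 in CPM, ran from 7.71 (without C5) to 13.4 with each library left out. It was 24.3 in TPM, 8.49 with SCG5 added, 6.97 within C4 to C6 alone and 1.32 within C1 to C3 alone. The ratio of C5 to C1 for the summed granins, 23.6 in CPM, was 27.3 with TMM and 30.4 with DESeq2 scaling, 33.8 without hormone genes in the totals, 12.6 with SCG5 added and 45.4 in TPM. In C1 to C6 the share of SCG2 in the 6-gene sum was 16.9, 16.1, 16.4, 76.6, 85.6 and 71.6% in TPM, which divides by length. Other than by the counts per TPM given above, the cause of these shifts was not tested. The ratio of the highest to the lowest library in CPM kept its direction for each granin and for the sum under these settings, but other pairs of libraries change order in TPM: VGF in C1 and C5 was at 23.6 and 9.92 CPM but 1.60 and 1.70 TPM, and CHGB in C1 and C3 at 90.9 and 82.9 CPM but 6.87 and 7.86 TPM. Of 18 genes named as nearest in profile to the 6 members, 16 were named again with no minimum mean and 11 with a pseudocount of 0.1 CPM. Depth limits SCG3 and VGF most, with 5 to 7 and 6 counts in their lowest libraries.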
